A study of Mus musculus with 16 samples.

Results

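The 9 genes described here, Dazl, Ddx4, Mael, Stra8, Sycp1, Sycp3, Stag3, Rec114 and Morc1, belong to the germline and meiotic programme of the mouse. All probe sets annotated with one of these symbols and no other were taken, which gave 11 probe sets of the 45037 non-control probe sets on the array and 9 of the 18193 genes named by a single symbol. Dazl and Rec114 had 2 probe sets each and the other genes 1. Levels were read on 16 single-channel Affymetrix arrays in 7 groups, all from wild-type C57Bl6 mice. Haematopoietic stem cells (HSC), the marrow cells that renew the blood, were sorted from young (3 to 4 months, 3 arrays) and aged (21 to 24 months, 3 arrays) male mice at steady state. They were also sorted from recipients that had received young or aged marrow (2 arrays each), for which the labels give no age in months. Induced pluripotent stem cells (iPSC) of young or aged haematopoietic origin (2 arrays each) and commercial embryonic stem cells (ESC, 1 line from Open Biosystems and 1 from Primogenix) were grown on mouse embryonic fibroblast (MEF) feeders. The labels call the HSC and iPSC arrays biological replicates without naming animals or lines, so p-values measure only the spread between these arrays.

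In the mouse, germ cells activate a set of genes that somatic cells keep silent, largely by promoter DNA methylation and by repressors such as the E2F6 and MGA-MAX-PCGF6 complexes, which bind E2F and E-box motifs. Dazl and Ddx4 encode germ cell RNA-binding proteins, and Mael acts in the piRNA pathway that silences transposons. Stra8 is the retinoic acid-induced gatekeeper of meiotic entry. Sycp3 and Stag3 belong to the meiotic chromosome axis, Sycp1 links paired axes and Rec114 serves the DNA breaks of meiosis. Some of these genes are also transcribed in pluripotent cells, where no meiosis takes place.

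The promoters are shown because all 9 genes were higher in pluripotent cells than in HSC, and because the E-box CACGTG and the E2F-type motif TCCCGC are the letters recognised by the repressors named above. Each window is the 250 bases before the annotated start, on the gene's strand, from RefSeq on GRCm38.p6. Windows were given for 8 of the 9 genes: chr17:50293621-50293870 (minus strand) for Dazl, chr13:112652311-112652560 (minus) for Ddx4, chr1:166238745-166238994 (minus) for Mael, chr6:34920698-34920947 (plus) for Stra8, chr3:102936101-102936350 (minus) for Sycp1, chr10:88459337-88459586 (plus) for Sycp3, chr5:138280259-138280508 (plus) for Stag3 and chr9:58741560-58741809 (minus) for Rec114. Capitals mark CACGTG, and TCCCGC on either strand (GCGGGA on the opposite one).
Dazl: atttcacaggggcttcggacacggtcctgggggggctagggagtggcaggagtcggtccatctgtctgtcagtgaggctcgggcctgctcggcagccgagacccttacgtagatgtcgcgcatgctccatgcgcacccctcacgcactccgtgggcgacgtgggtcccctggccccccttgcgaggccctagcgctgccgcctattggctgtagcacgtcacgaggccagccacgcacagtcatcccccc
Ddx4: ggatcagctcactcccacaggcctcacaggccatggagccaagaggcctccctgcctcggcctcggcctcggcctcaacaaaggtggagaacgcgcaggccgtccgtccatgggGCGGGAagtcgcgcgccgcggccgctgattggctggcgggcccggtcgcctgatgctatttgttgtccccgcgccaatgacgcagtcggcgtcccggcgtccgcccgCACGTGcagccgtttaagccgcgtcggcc
Mael: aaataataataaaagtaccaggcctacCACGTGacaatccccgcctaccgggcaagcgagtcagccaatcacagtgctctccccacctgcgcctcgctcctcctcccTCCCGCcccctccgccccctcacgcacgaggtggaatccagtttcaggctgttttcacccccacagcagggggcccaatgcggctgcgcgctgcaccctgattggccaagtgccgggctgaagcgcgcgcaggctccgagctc
Stra8: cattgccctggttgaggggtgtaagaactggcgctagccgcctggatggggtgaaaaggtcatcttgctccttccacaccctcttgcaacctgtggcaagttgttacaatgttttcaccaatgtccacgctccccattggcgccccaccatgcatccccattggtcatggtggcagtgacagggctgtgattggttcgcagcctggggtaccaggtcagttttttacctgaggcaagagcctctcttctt
Sycp1: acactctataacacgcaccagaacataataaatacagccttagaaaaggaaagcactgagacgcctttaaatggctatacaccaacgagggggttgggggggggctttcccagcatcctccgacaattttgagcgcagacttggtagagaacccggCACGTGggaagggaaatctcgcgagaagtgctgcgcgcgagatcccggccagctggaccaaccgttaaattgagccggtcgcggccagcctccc
Sycp3: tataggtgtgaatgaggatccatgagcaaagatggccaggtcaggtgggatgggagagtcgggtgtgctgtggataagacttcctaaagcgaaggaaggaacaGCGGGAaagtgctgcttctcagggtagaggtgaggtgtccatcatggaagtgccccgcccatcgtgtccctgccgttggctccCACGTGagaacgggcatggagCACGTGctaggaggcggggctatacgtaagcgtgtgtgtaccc
Stag3: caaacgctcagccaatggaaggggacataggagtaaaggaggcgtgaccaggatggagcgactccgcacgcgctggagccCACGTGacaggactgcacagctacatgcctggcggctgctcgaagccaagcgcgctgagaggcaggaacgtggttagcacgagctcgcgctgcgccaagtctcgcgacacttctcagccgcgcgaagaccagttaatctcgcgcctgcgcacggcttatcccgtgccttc
Rec114: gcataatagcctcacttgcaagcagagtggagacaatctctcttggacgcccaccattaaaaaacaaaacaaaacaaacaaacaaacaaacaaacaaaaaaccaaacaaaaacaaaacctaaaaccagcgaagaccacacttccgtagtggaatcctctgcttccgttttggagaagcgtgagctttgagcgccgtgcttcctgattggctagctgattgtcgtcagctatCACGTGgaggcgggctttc

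CACGTG was found in 6 of these 8 windows, against 6.02% of all 32851 windows of the same length. It began 29 bases before the start in Ddx4, 223 in Mael, 94 in Sycp1, 170 in Stag3 and 19 in Rec114, and Sycp3 carried 2 copies, at 64 and 43 bases. TCCCGC was found in 3 windows, those of Ddx4, Mael and Sycp3, against 16.9% of all windows, and these 3 held both motifs, as did 1.45% of all windows. The windows of Dazl and Stra8 held neither. The CG dinucleotide occurred 31 times in the Ddx4 window, 26 in Stag3, 20 in Dazl, 18 in Mael, 17 in Sycp1, 12 in Sycp3, 10 in Rec114 and 5 in Stra8, beside a median of 6 over all windows. Both motifs contain CG, and the shares over all windows were not matched for CG count. CACGTG reads the same on both strands, and no match of one motif overlapped a match of the other in these windows. A match describes these letters and was not set against any binding or methylation measurement, since none was used here.

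Blood and pluripotency markers separated iPSC from HSC in the direction of their labels. All 8 measured haematopoietic markers were lower in iPSC than in steady-state HSC, with a mean log2 intensity over the list of 11.16 to 11.45 on the 6 steady-state HSC arrays, 9.55 to 9.84 on the 4 transplanted HSC arrays and 5.0 to 5.15 on the 4 iPSC arrays. All 9 measured pluripotency markers were higher in iPSC, at 10.49 to 10.6 against 4.37 to 4.46. The 8 haematopoietic markers were also all called lower in transplanted than in steady-state HSC (median -1.71), where 42.5% of all genes were called lower. Array medians lay between 43.42 and 51.84 on the linear intensity scale. Pearson's r between replicate arrays over all probe sets was 0.945 in young transplanted HSC, 0.966 in aged transplanted HSC and 0.981 to 0.993 in the other groups. Since no detection calls were used, a level below an array's own 25th percentile over all probe sets (log2 4.11 to 4.31) is described here as low.

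**Figure D1:**
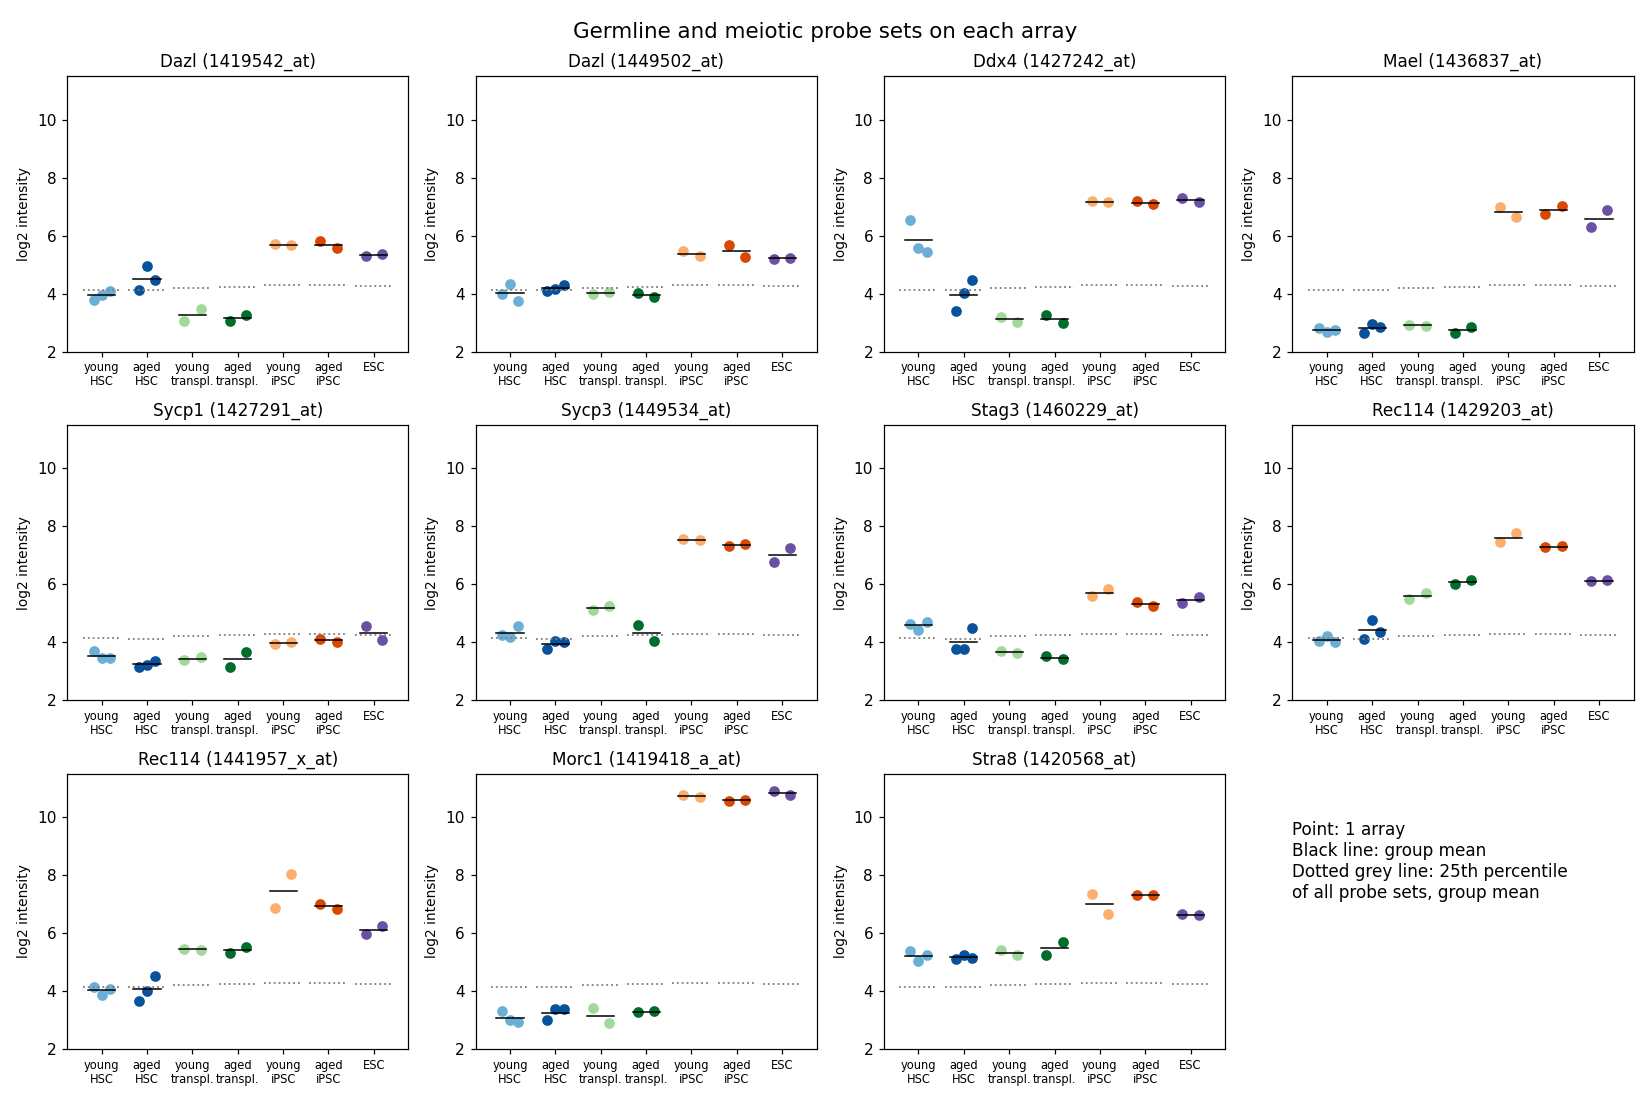
Log2 intensity of the 11 probe sets (vertical axis) on each of the 16 arrays, by group (horizontal axis). Each point is 1 array, the black line is the group mean and the dotted line is the 25th percentile over all probe sets; Morc1 moved from 2.9 to 3.41 on the 10 HSC arrays to between 10.57 and 10.91 on the 6 iPSC and ESC arrays, and Ddx4 lay at 5.44 to 6.55 in young and 3.41 to 4.46 in aged steady-state HSC.

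In iPSC, every one of the 9 genes was higher than in steady-state HSC, from Sycp1 at 1.56-fold to Morc1 at 179.9-fold. The largest differences after Morc1 belonged to Mael, Sycp3 and Rec114. All 11 probe sets passed the threshold (limma, adjusted p under 0.05 over all 45037 probe sets) and none had overlapping arrays; over the whole array 33.8% of probe sets were called higher and 30.8% were higher without overlap. ESC gave the same count of 11 called higher, against 24.4% of all probe sets, with 33.6% higher without overlap. Against transplanted HSC the count was again 11, where 37.7% of all probe sets were called higher and 33.7% were higher without overlap. The comparisons share the steady-state HSC or the iPSC arrays. The median difference over the 11 probe sets was 2.25 for iPSC and 1.88 for ESC against steady-state HSC and 1.95 for iPSC against transplanted HSC, beside medians over all probe sets of 0.15, 0.11 and 0.1. In bulk RNA of this kind, more cells expressing a gene and more RNA per cell cannot be told apart.

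Morc1, a germ cell ATPase of the MORC family needed for transposon silencing in male germ cells, read 10.77 and 10.69 on the young-origin iPSC arrays, 10.57 and 10.6 on the aged-origin arrays and 10.91 and 10.78 on the ESC arrays. The 6 steady-state HSC arrays lay between 2.93 and 3.37 with a median of 3.16, and the 4 transplanted HSC arrays read 3.41, 2.9, 3.27 and 3.31. All 10 HSC levels were low, and on the pluripotent arrays Morc1 stood at percentiles 95.9 to 96.9 of all probe sets. The difference was 7.49 ± 0.13 (log2, SE; adjusted p = 8.08e-14) for iPSC and 7.68 ± 0.17 (adjusted p = 1.33e-12) for ESC against steady-state HSC.

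Mael, a piRNA pathway protein of the germ granule, read 7.0 and 6.63 in young-origin iPSC, 6.76 and 7.02 in aged-origin iPSC and 6.29 and 6.87 in ESC. It was low on all 10 HSC arrays, at 2.65 to 2.96 at steady state and 2.93, 2.88, 2.65 and 2.85 after transplantation. iPSC exceeded steady-state HSC by 4.06 ± 0.13 (adjusted p = 2.06e-11), and ESC by 3.79 ± 0.17 (adjusted p = 8.23e-10).

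Ddx4, the RNA helicase known as VASA, was within 7.08 to 7.31 on all 6 pluripotent arrays: 7.19 and 7.15 in young-origin iPSC, 7.2 and 7.08 in aged-origin iPSC, 7.31 and 7.16 in ESC. HSC differed among themselves more than for any other member. Young steady-state HSC read 6.55, 5.59 and 5.44, aged steady-state HSC 3.41, 4.01 and 4.46, and transplanted HSC 3.2, 3.03, 3.25 and 2.98. All 4 transplanted levels and 2 of the 3 aged steady-state levels were low. The order was therefore transplanted, aged, young, then pluripotent, and the ranges of these 4 sets did not overlap. The iPSC difference was 2.25 ± 0.22 (adjusted p = 1.3e-06) from steady-state HSC and 4.04 ± 0.24 (adjusted p = 5.87e-09) from transplanted HSC.

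Dazl, a translational regulator that licenses germ cells to develop further, was only moderately high. Probe set 1419542_at read 5.7 and 5.68 in young-origin iPSC, 5.83 and 5.56 in aged-origin iPSC, and 5.29 and 5.37 in ESC, near each array's median. Steady-state HSC lay between 3.78 and 4.96 (median 4.11). iPSC exceeded steady-state HSC by 1.46 ± 0.15 (adjusted p = 2.17e-06), and by 1.32 ± 0.13 (adjusted p = 8.26e-07) with probe set 1449502_at. The 2 Dazl probe sets correlated at r = 0.9 over the 16 arrays, which form separate HSC and pluripotent clusters, and at 0.4 over the 10 HSC arrays.

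Stra8 lay above the 25th percentile on every array, and under the array median on 9 of the 10 HSC arrays. Its levels were 7.36 and 6.66 in young-origin iPSC, 7.3 and 7.33 in aged-origin iPSC and 6.66 and 6.61 in ESC. Steady-state HSC lay between 5.03 and 5.37 (median 5.19), and transplanted HSC read 5.4, 5.23, 5.26 and 5.69. The lowest iPSC array, replicate 2 of young origin, thus sat at the ESC level. iPSC exceeded steady-state HSC by 1.98 ± 0.14 (adjusted p = 4.88e-08).

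The chromosome axis and synaptonemal complex genes ranged from high to low readings. Sycp3, an axial element protein of the synaptonemal complex, which zips paired chromosomes together, read 7.56 and 7.53 in young-origin iPSC, 7.32 and 7.38 in aged-origin iPSC and 6.77 and 7.25 in ESC, against 3.76 to 4.55 (median 4.13) in steady-state HSC. The iPSC difference was 3.32 ± 0.14 (adjusted p = 2.24e-10). Stag3, the meiosis-specific STAG subunit of cohesin, read 5.6 and 5.83 in young-origin iPSC, 5.39 and 5.24 in aged-origin iPSC and 5.36 and 5.55 in ESC, against 3.77 to 4.69 (median 4.46) at steady state; the difference was 1.21 ± 0.14 (adjusted p = 7.13e-06). Sycp1, the transverse filament of the same complex, stayed low: 3.95 and 4.02 in young-origin iPSC, 4.11 and 4.03 in aged-origin iPSC, 4.57 and 4.08 in ESC, and 3.15 to 3.69 in steady-state HSC. All 4 iPSC levels and 1 of the 2 ESC levels of Sycp1 lay under the 25th percentile of their arrays, so its difference of 0.64 ± 0.13 (adjusted p = 0.000869) is one between low readings, and it fell short of 2-fold in all 3 comparisons.

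Rec114, a partner of the enzyme that cuts DNA to start meiotic recombination, showed a graded order. Probe set 1429203_at read 4.01 to 4.76 (median 4.16) at steady state, 5.48 and 5.71 in young and 6.02 and 6.14 in aged transplanted HSC, 6.12 and 6.14 in ESC, and 7.46 and 7.77 in young-origin and 7.28 and 7.33 in aged-origin iPSC. Transplanted HSC and ESC touched, and the steady-state HSC and iPSC arrays stood apart on either side. The iPSC difference was 3.21 ± 0.13 (adjusted p = 1.57e-10) from steady-state HSC and 1.62 ± 0.14 (adjusted p = 2.56e-07) from transplanted HSC. Probe set 1441957_x_at gave 3.13 ± 0.21 and 1.75 ± 0.23, and correlated with the first at r = 0.97 over 16 arrays and 0.92 over the 10 HSC arrays.

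**Figure D2:**
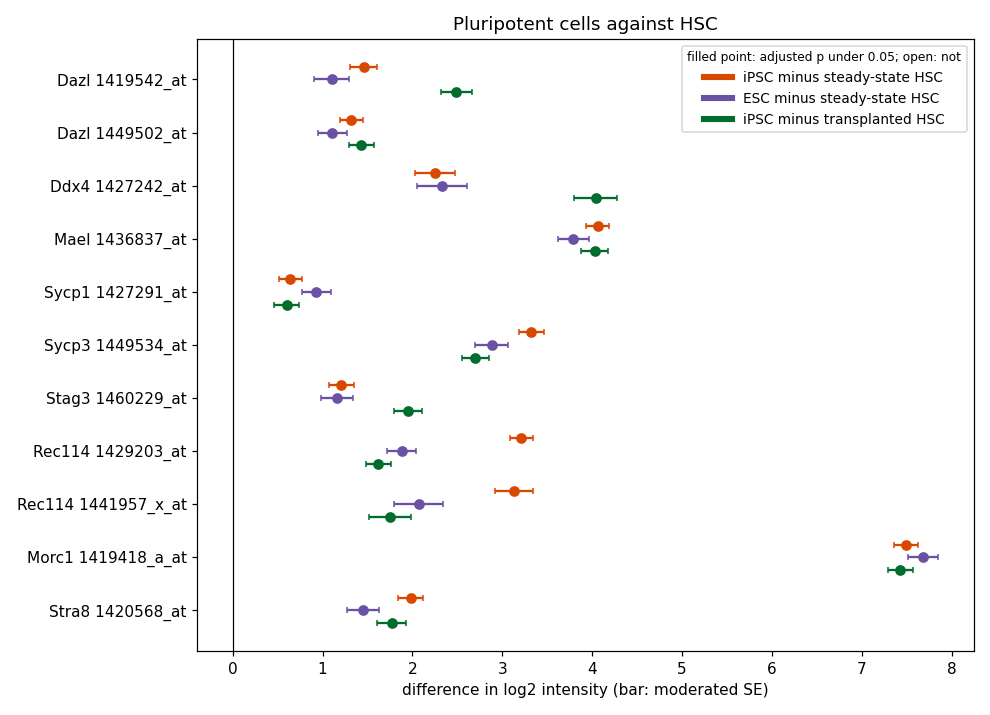
Difference in log2 intensity (horizontal axis) for each probe set, as iPSC or ESC minus steady-state HSC and iPSC minus transplanted HSC; points are limma estimates and bars 1 moderated SE. All points are filled (adjusted p under 0.05) and lie right of 0, from 0.6 for Sycp1 to 7.68 for Morc1.

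Rec114 was the only one of the 9 genes called between iPSC and ESC. Probe set 1429203_at was higher on all 4 iPSC arrays (7.28 to 7.77) than on both ESC arrays (6.12 and 6.14), a 2.52-fold difference of 1.33 ± 0.13 (limma on the 6 arrays, adjusted p = 0.00428). It was 1 of the 5 probe sets called higher on the whole array, 0.0111% of those tested. Probe set 1441957_x_at pointed the same way, at 6.85 and 8.03 in young-origin iPSC, 7.01 and 6.83 in aged-origin iPSC and 5.96 and 6.26 in ESC, and missed the threshold (1.07 ± 0.27, adjusted p = 0.223). The call of the first was lost with a pseudocount of 64 (0.84, adjusted p = 0.163) and when either ESC line was left out (adjusted p = 0.0569 and 0.0658). Without young-origin replicate 1, both probe sets were called.

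The other members gave differences of -0.3 to 0.53 between iPSC and ESC, none called. Counting Rec114, 5 of the 11 probe sets had an unadjusted p under 0.05 with limma, as did 4975 of all 45037. Stra8 was 0.53 ± 0.18 higher (adjusted p = 0.319), Sycp3 0.44 ± 0.15 (adjusted p = 0.325) and Dazl 0.36 ± 0.13 by 1419542_at (adjusted p = 0.345). Ddx4 at -0.08 ± 0.12, Stag3 at 0.06 ± 0.13 and Morc1 at -0.19 ± 0.12 were within 2 SE of 0. Arrays did not overlap for 6 probe sets higher and 1 lower (Morc1) in iPSC, where 21.6% of all probe sets did not overlap in either direction. The 10 fibroblast markers chosen to follow the feeders averaged log2 6.0 to 6.57 in iPSC and 6.57 on both ESC arrays. Replicate 2 of young origin had the ESC value of 6.57 and the highest Rec114 levels of all arrays (7.77 and 8.03), and the other 3 iPSC arrays, at 6.0 to 6.15, were also above both ESC arrays in Rec114. The part of the feeders in the Rec114 difference was not tested.

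The age of the cell of origin left no called difference among the 9 genes in iPSC. With limma, 0 of 11 probe sets were called between aged-origin and young-origin iPSC, 1 had an unadjusted p under 0.05, and 4 probe sets of the whole array (0.00888%) were called. That member was Stag3, at 5.39 and 5.24 in aged-origin against 5.6 and 5.83 in young-origin iPSC, a difference of -0.4 ± 0.15 (adjusted p = 0.996). Arrays did not overlap for 1 probe set higher and 4 lower, beside 32.4% of all probe sets. Ddx4 (-0.03 ± 0.14), Dazl (0.0 ± 0.15 and 0.08 ± 0.17), Mael (0.08 ± 0.22) and Sycp1 (0.08 ± 0.18) differed least.

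**Figure D3:**
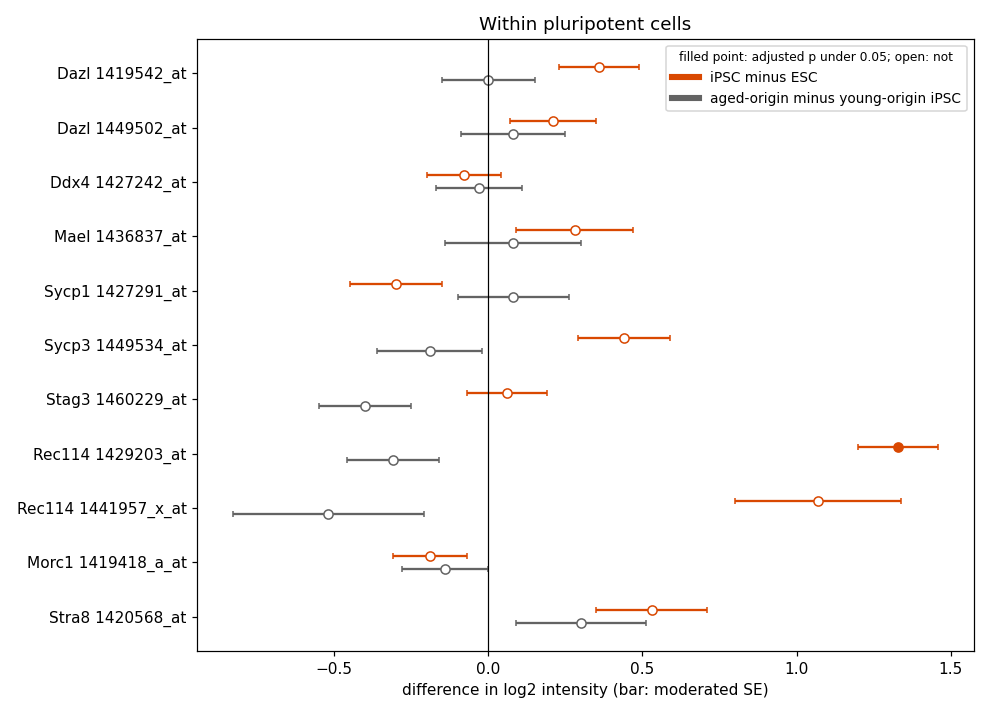
Difference in log2 intensity (horizontal axis) for each probe set as iPSC minus ESC and as aged-origin minus young-origin iPSC; points are limma estimates, bars 1 moderated SE, and a filled point has an adjusted p under 0.05. The filled point is Rec114 1429203_at in iPSC minus ESC, at 1.33.

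Within HSC, Ddx4 gave the largest age difference of the 9 genes. Its 3 young steady-state arrays (5.44 to 6.55) were all above the 3 aged arrays (3.41 to 4.46), which is 3.73-fold less in aged HSC. The difference of -1.9 ± 0.33 just missed the threshold in the fit of the 10 HSC arrays (adjusted p = 0.0519). It was called when the variance prior was made robust and intensity-dependent (adjusted p = 0.0306) and when all 16 arrays shared 1 variance (adjusted p = 0.00364), and not when any 1 steady-state or transplanted array was left out (adjusted p from 0.0605 to 0.198, difference from -2.15 to -1.55). With limma 0 of 11 member probe sets were called, 3 had an unadjusted p under 0.05, and 0.495% of all probe sets were called. Besides Ddx4 these 3 were Stag3, at 4.64, 4.44 and 4.69 in young and 3.77, 3.78 and 4.49 in aged HSC (-0.58 ± 0.2, adjusted p = 0.72), and Dazl 1419542_at, at 3.78, 3.96 and 4.08 in young and 4.14, 4.96 and 4.46 in aged HSC (0.58 ± 0.22, adjusted p = 0.837). The second Dazl probe set gave 0.16 ± 0.17. Arrays did not overlap for 1 probe set higher and 3 lower with age, beside 14.2% of all probe sets; the higher one was Dazl 1419542_at and the lower ones Ddx4, Sycp3 (4.24, 4.2 and 4.55 in young, 3.76, 4.05 and 4.0 in aged HSC) and Sycp1.

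In transplanted HSC and in iPSC the age difference in Ddx4 was near 0. Young and aged transplanted HSC both averaged 3.12, a difference of -0.0 ± 0.41, and aged- and young-origin iPSC differed by -0.03 ± 0.14. All 4 transplanted levels of Ddx4 were low, at percentiles 4.0 to 8.1 of all probe sets, where an age difference could hardly show. Tested directly, the age difference in transplanted HSC exceeded that at steady state by 1.9 ± 0.52 (adjusted p = 0.292) and the one in iPSC exceeded it by 1.87 ± 0.45 (adjusted p = 0.224), so neither test passed the threshold. In these tests 0.0511% and 0.213% of all probe sets were called.

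Sycp3 was the member that differed most with age after transplantation, at 5.12 and 5.25 in recipients of young marrow and 4.59 and 4.04 in recipients of aged marrow. The difference of -0.87 ± 0.23 was not called (adjusted p = 0.128), and was called when all 16 arrays shared 1 variance (adjusted p = 0.0435). With limma 0 of 11 probe sets were called in this comparison and 1 had an unadjusted p under 0.05, while 0.833% of all probe sets were called. Arrays did not overlap for 1 probe set higher and 3 lower, beside 32.1% of all probe sets. These calls over the whole array draw on the spread of the steady-state arrays as well: limma on the 4 transplanted arrays alone called 0 probe sets, and in the 10-array fit 5806 had an unadjusted p under 0.05.

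Transplanted HSC differed from steady-state HSC in 5 of the 9 genes, counting Dazl by 1 of its 2 probe sets, with some higher and some lower. Rec114 was higher by 1.58 ± 0.14 (3.0-fold, adjusted p = 1.23e-05) and 1.39 ± 0.17 (adjusted p = 7.68e-05) with its 2 probe sets, and Sycp3 by 0.62 ± 0.15 (adjusted p = 0.00506). Ddx4 was lower by a difference of -1.79 ± 0.26 (adjusted p = 0.000273), Stag3 of -0.73 ± 0.16 (adjusted p = 0.00326) and Dazl 1419542_at of -1.02 ± 0.17 (adjusted p = 0.000731), while Dazl 1449502_at differed by -0.1 ± 0.13 (adjusted p = 0.531). All 3 probe sets called lower were low, under the 25th percentile, on the 4 transplanted arrays. At steady state Dazl 1419542_at was low on 3 of 6 arrays, and Ddx4 and Stag3 on 2 of 6 each. Stag3 read 3.7, 3.63, 3.53 and 3.41 on the transplanted arrays, all under the 3.77 of the lowest steady-state array. Dazl 1419542_at read 3.06, 3.46, 3.05 and 3.26 there, under the lowest steady-state level of 3.78, and Dazl 1449502_at read 3.9 to 4.07, inside the steady-state range of 3.76 to 4.32. The 3 higher and 3 lower probe sets stand beside 28.1% and 31.4% of all probe sets, so the share called among the members was near that of the array. Arrays did not overlap for 2 probe sets higher and 3 lower, beside 46.7% of all probe sets. All 6 calls and their directions were kept when arrays were quantile normalised or centred on their medians. Centring shifted the median over all probe sets from -0.04 to -0.25 and the share of higher among all calls from 47.2% to 34.7%. The haematopoietic marker mean also differed between these sets (11.16 to 11.45 at steady state, 9.55 to 9.84 after transplantation), and its part in these differences was not tested.

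**Figure D4:**
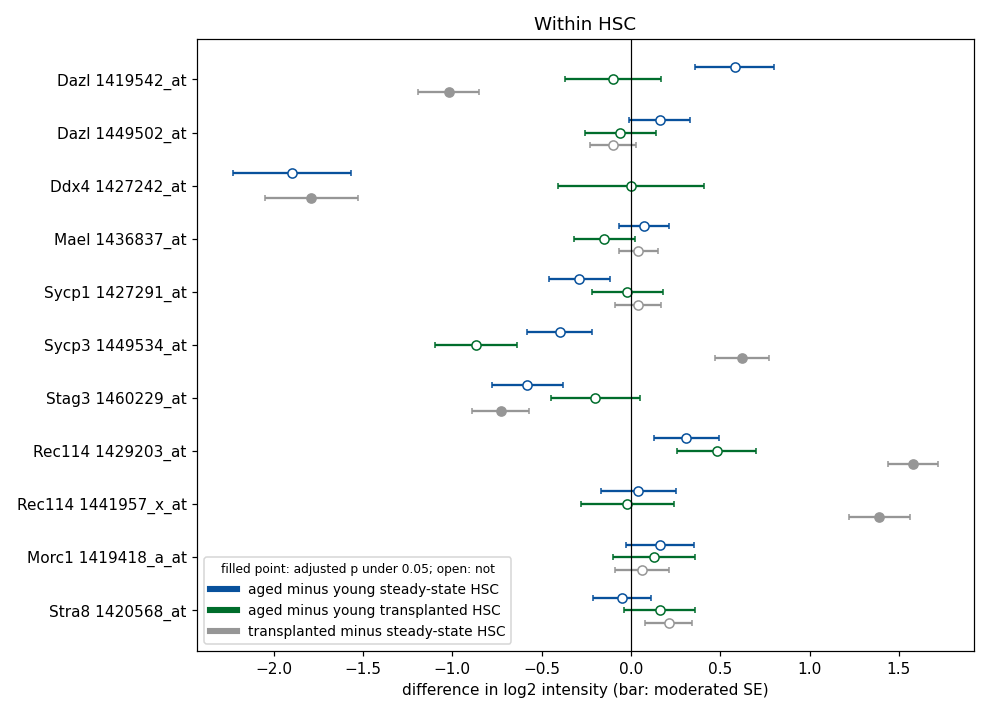
Difference in log2 intensity (horizontal axis) for each probe set in HSC, as aged minus young at steady state, aged minus young after transplantation, and transplanted minus steady state; points are limma estimates, bars 1 moderated SE, and filled points have an adjusted p under 0.05. The filled points are all in transplanted minus steady-state HSC, with Ddx4 at -1.79 and Rec114 at 1.58 as the extremes; the open Ddx4 point at -1.9 is the steady-state age difference.

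Other genes of the same processes were read from lists, with the probe set of highest mean intensity standing for each gene; over all 18193 genes, 39.1% were called higher and 26.6% lower in iPSC than in steady-state HSC, with a median of 0.2. Among germ cell specification genes 14 of 17 measured were called higher and 2 lower (median 0.81). They included Tfap2c (6.98 ± 0.21), a transcription factor of primordial germ cells, Dppa3 (4.33 ± 0.14), a maternal chromatin protein, Prdm14 (4.24 ± 0.14), a regulator of both pluripotency and germ cell fate, and Dmrt1 (3.48 ± 0.11), a gonadal transcription factor. Several genes of this list are also pluripotency genes.

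Of 18 measured piRNA and germ granule genes, 12 were called higher and 4 lower (median 0.45), and 8 and 4 under quantile normalisation or median centring. Tdrd12 (5.86 ± 0.2), Rnf17 (5.78 ± 0.17) and Gtsf1 (3.5 ± 0.15), all piRNA pathway proteins like Mael, were higher, while Tdrd7, a germ granule scaffold, was at 8.78 to 9.21 in steady-state HSC and 4.63 to 5.41 in iPSC (-3.86 ± 0.25). Tdrd9, a piRNA pathway helicase, was lower in iPSC than the mean of both steady-state ages (-2.05 ± 0.21), with young HSC well below it. It was the only gene of these germline lists called in steady-state HSC ageing, higher in aged HSC by 3.56 ± 0.31 (limma, adjusted p = 0.00154). Tdrd9 levels were 5.4 ± 0.28 in young and 8.96 ± 0.14 in aged HSC (SD, n = 3 each). In aged transplanted HSC it was higher by 2.14 ± 0.38 (adjusted p = 0.0465, limma on the 10 HSC arrays). Limma on the 4 transplanted arrays alone called 0 probe sets with age, which also limits the Zfp352 and Csf1r calls below.

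Synaptonemal complex and axis genes other than the members were called higher in 6 of 9 and lower in 0 (median 1.16), or 5 and 0 under the 2 other scalings. Syce1 (2.54 ± 0.14), Syce2 (1.99 ± 0.1) and Syce3 (1.7 ± 0.17), central element proteins, and Hormad1 (2.03 ± 0.17), an axis protein, led. Syce2 was already at 9.38 to 10.26 in steady-state HSC. Against transplanted HSC the same list gave 3 higher and 1 lower. Of 16 measured recombination genes 10 were called higher and 2 lower (median 0.52): Tex15 (4.37 ± 0.28), Hsf2bp (3.83 ± 0.33) and Mnd1 (2.6 ± 0.25) were higher, and Spo11, the enzyme that makes the breaks, was lower (-2.94 ± 0.25), from 6.57 to 8.36 in steady-state HSC to 4.1 to 4.89 in iPSC.

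The cohesin subunits went both ways. Rec8, the meiotic kleisin, was lower in iPSC (-0.67 ± 0.13) and Smc1b higher (0.7 ± 0.19), and their median changed sign with centring (0.01 to -0.04). Of 5 somatic subunits 4 were lower than in steady-state HSC: Stag2 (-2.3 ± 0.14), Rad21 (-0.97 ± 0.11), Smc1a (-0.96 ± 0.16) and Smc3 (-0.63 ± 0.19); quantile normalisation left 3. Against transplanted HSC 2 of the 5 were higher and 0 lower, and of the 2 meiotic genes 1 was higher and 1 lower. Stag1, the other somatic STAG subunit, differed by -0.09 ± 0.14 (adjusted p = 0.598).

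Meiotic entry genes other than Stra8 gave 4 higher and 3 lower of 8 (median 0.55): Meioc (2.79 ± 0.14) and Zglp1 (1.0 ± 0.12) were higher, and Ythdc2 (-2.03 ± 0.16), the partner of Meioc, and Rarb (-2.34 ± 0.28), a retinoic acid receptor, were lower. The 4 other MORC family genes gave 1 higher, Morc2a (0.66 ± 0.15), and 2 lower, Morc4 (-1.44 ± 0.22) and Morc3 (-0.89 ± 0.16), beside the 7.49 of Morc1. Against transplanted HSC the same 4 genes gave 3 higher and 1 lower, and their median was 1.2 in place of -0.46. Genes known to repress the germline programme gave 10 higher and 4 lower of 19 (median 0.59). Dnmt3l (5.59 ± 0.15) and Dnmt3b (2.19 ± 0.12), of the DNA methylation machinery, were higher in iPSC, while E2f6 (-2.39 ± 0.14) and Yaf2 (-3.76 ± 0.15), of a Polycomb complex, were lower. Against transplanted HSC the median of this list was below 0, with 7 higher and 10 lower (median -0.57), or 8 and 8 with median centring (median -0.43); over all genes 48.5% were called higher and 23.7% lower in that comparison. Apart from meiotic cohesin, the remaining lists of these processes had more genes higher than lower against transplanted HSC, as did all genes. Germ cell specification gave 12 higher and 3 lower of 17, and the piRNA pathway and germ granule 9 and 5 of 18. Recombination gave 9 and 3 of 16 and meiotic entry 4 and 2 of 8. Outside germ cell specification, these shares were near those over all genes.

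**Figure D5:**
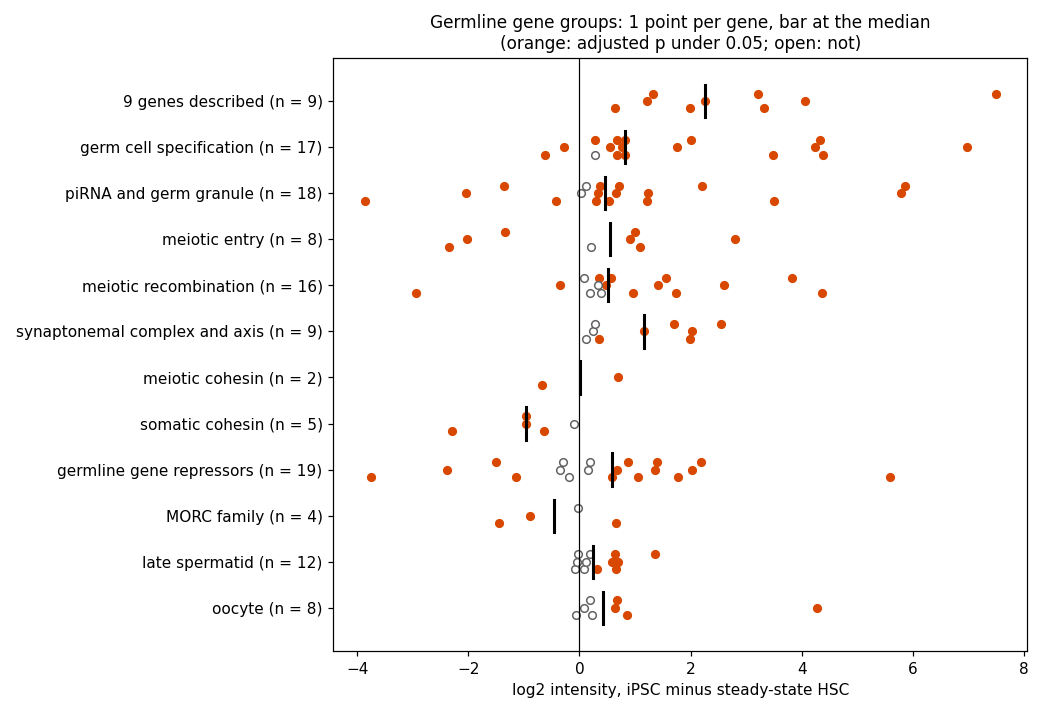
Difference in log2 intensity, iPSC minus steady-state HSC (horizontal axis), for each measured gene of the lists; 1 point is 1 gene, filled orange where the adjusted p is under 0.05, and the bar is the list's median. The 9 genes described have a median of 2.25, synaptonemal complex and axis genes 1.16, and late spermatid genes 0.25.

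Late spermatid and oocyte genes, like every other germline list above, had smaller medians than the 9 genes. The oocyte median of 0.43 was close to the 0.45 of the piRNA and germ granule list. Of 12 late spermatid genes 6 were called higher than in steady-state HSC and 0 lower, with a list median of 0.25 and a list mean of log2 4.79 to 4.95 on iPSC, 4.8 to 4.82 on ESC and 4.37 to 4.66 on steady-state HSC arrays; on transplanted HSC arrays it was 4.8 to 4.93. Ldhc (1.36 ± 0.15), the testis lactate dehydrogenase, led, followed by Acrv1 (0.69 ± 0.15), Prm3 (0.63 ± 0.15) and Spata19 (0.59 ± 0.11). Of 8 oocyte genes (median 0.43) 4 were called higher: Zp3 (4.28 ± 0.15), an egg coat protein, at 7.96 to 8.41 on the iPSC arrays, Gdf9 (0.85 ± 0.1), Nlrp5 (0.68 ± 0.18) and Padi6 (0.64 ± 0.14). Of 3 measured genes of the 2-cell-like state Zfp352 alone was called (0.66 ± 0.12), and it was also higher in aged than young transplanted HSC (1.35 ± 0.22, adjusted p = 0.0362).

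Markers of other cells were read in the same comparison, where 39.1% of all genes were called higher and 26.6% lower. Of 10 feeder fibroblast genes 6 were called higher in iPSC than in steady-state HSC and 0 lower: Fn1 (4.5 ± 0.36), Thy1 (1.39 ± 0.2), Loxl1 (1.02 ± 0.2) and Col1a1 (0.44 ± 0.12) were the first 4, and the list mean was 5.09 to 5.45 in steady-state HSC against 6.0 to 6.57 in iPSC. Of 9 mature blood genes 3 were higher and 2 lower (median 0.14), shares near those over all genes. Cd3e (0.71 ± 0.12), Cd79a (0.6 ± 0.13) and Ighm (0.54 ± 0.13) were higher and Lyz2 (-4.58 ± 0.23) lower. Of the 9 genes, 5 lay under the array median on every iPSC array. In HSC ageing Mmp2 of the feeder list was lower in aged steady-state HSC (-1.78 ± 0.22, adjusted p = 0.00935) and Csf1r of the blood list lower in aged transplanted HSC (-3.61 ± 0.58, adjusted p = 0.0353). Their part in the differences of the members was not tested.

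The genes whose pattern was most like each member's were ranked by Pearson's r of log2 intensity over the 16 arrays, among 6280 genes whose group means spanned at least 2 log2 units. Since the arrays fall into an HSC and a pluripotent cluster, these values describe that split and carry no test. Morc1 was closest to Dppa4, Bcat1 and Lamb1 (r = 0.999 each), and Mael to Fbxo15, Dppa4 and Eras (0.996 each). Sycp3 was closest to 2610318N02Rik (0.988), Atp1b1 (0.987) and Ercc6l (0.985), and Stra8 to Sox15 (0.972), Crocc and Pou3f1 (both 0.971). Ddx4, with its spread among HSC, was closest to S100a16 (0.97), Ntf5 (0.967) and Tipin (0.965). Stag3 was closest to Sac3d1 (0.969), Mutyh (0.968) and Dynll1 (0.967), and Rec114 to Chchd5 (0.967), Atp5l (0.957) and Rhox6 (0.956). Dazl and Sycp1 spanned 1.5 and 1.08 between group means and were not ranked.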

How the data were processed

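RNA of 16 samples was hybridised to single-channel Affymetrix arrays as biotinylated cRNA, per the labels' protocols. The authors deposited 1 table of linear intensity values for 45101 probe sets (4.5339 to 31493.3, none missing); the sources used here do not state how intensities were summarised and normalised, and no scanner files were used. The deposited scaling was kept and values were taken to log2 with no pseudocount. Of 45037 non-control probe sets, 34945 carried 1 gene symbol in the platform annotation, 932 several and 9160 none. All were fitted with limma 3.58.1 (lmFit, eBayes) in R 4.3.3, with no filter on dim probe sets: 16 arrays for pluripotent cells against HSC, 6 for iPSC and ESC, 10 for HSC. Benjamini-Hochberg adjustment covered all 45037, and a call is an adjusted p under 0.05, two-sided. Values after ± are moderated SEs unless named SD. The number of arrays limits precision. Dim probe sets near the floor understate folds. The scripts were tested on simulated data.

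The genes, gene lists and tests were chosen with earlier results of these data known. All 11 member probe sets are reported. From the other lists, up to 4 genes with the smallest p in iPSC against steady-state HSC are named, plus any called in iPSC against ESC, by origin or by age; 3 like genes are named for members spanning at least 2 log2 units. Stag1 was named after its values were seen. Alternatives were other scalings, filters on dim probe sets, pseudocounts, 1 probe set per gene, variance priors, sets of arrays, a 2-fold minimum, the replicate number as a block and leaving out each array.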

Additional observations from a re-analysis of the deposited data

Results flagged for a closer look

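Rec114 1429203_at was higher on both aged than on both young transplanted HSC arrays (6.02 and 6.14 against 5.48 and 5.71) and lower on both aged-origin than on both young-origin iPSC arrays (7.28 and 7.33 against 7.46 and 7.77). The age difference in iPSC minus that in transplanted HSC was -0.79, and this difference was not tested. Sycp1 1427291_at was lower on all 3 aged than on all 3 young steady-state HSC arrays (3.15, 3.23 and 3.36 against 3.69, 3.45 and 3.46) and higher on both aged-origin than on both young-origin iPSC arrays (4.11 and 4.03 against 3.95 and 4.02). The age difference in iPSC minus that in steady-state HSC was 0.37, and the fit of all 16 arrays gave it an SE of 0.26 and an adjusted p of 1. All Sycp1 levels named here lie under the 25th percentile of their arrays.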

How the results depend on the processing

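Over 28 alternative settings, 1836 values of single probe sets stayed on the same side of the threshold, 8 lost a call and 4 gained one. A change of sign was counted only where a value was called, and 0 such reversals occurred. Uncalled values could change sign and still count among the 1836, as for Rec114 1441957_x_at by origin (-1.11 to 0.07). In iPSC or ESC against steady-state HSC and iPSC against transplanted HSC, 11 members were called; 3 of 3 tested were called with the 50th percentile filter and 5 of 5 with 1 probe set per gene, where fewer members were tested. The 1 call in iPSC against ESC became 0 with a pseudocount of 64 and 0 to 2 when 1 array was left out. The 0 calls with age at steady state became 1 (Ddx4) with the robust, intensity-dependent prior and 1 with all 16 arrays; after transplantation 0 became 1 (Sycp3) with all 16 arrays. The 6 calls in transplanted against steady-state HSC became 3 with the 25th percentile filter (4 tested), all 3 higher, and 1 with 1 probe set per gene (2 tested). Leaving out 1 array left every other count unchanged (11 in each of the 3 comparisons of pluripotent cells with HSC, 0 by origin and in both age comparisons, 6 in transplanted against steady-state HSC). A 2-fold minimum removed Sycp1 from 3 comparisons and Stag3 and Sycp3 from transplanted against steady-state HSC.

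The labels do not tie replicate numbers to pairs. Same-numbered deviations from the group means correlated at -0.02, -0.33 and 0.17 at steady state, -0.13 after transplantation and -0.09 in iPSC. With 2 arrays in a group the deviations mirror each other, so these values cannot decide whether samples were paired. With the replicate number as a block, members called stayed at 11, 11, 11, 1, 0, 0, 0 and 6 in the order pluripotent cells against HSC (3 comparisons), iPSC against ESC, origin, age at steady state, age after transplantation and transplanted against steady state, while over all probe sets 223 calls with age at steady state became 62 and 375 after transplantation became 0. Those 223 were 416 with all 16 arrays and 404 with the 6 compared, and the 375 were 1666 and 0; the 33 in iPSC against ESC ranged from 0 (pseudocount 64) to 102 (robust prior). Levels near the floor, as for Sycp1, limit what a difference can show.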
